A study of Mus musculus with 4 samples.

Results

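The Hippo pathway and its matricellular CCN targets were followed through the mouse ovary as 9 genes, taken by symbol from the 32285 genes in the deposited count matrices. They were the kinases Lats1 and Lats2, the transcriptional coactivators Yap1 (YAP) and Wwtr1 (TAZ), the DNA-binding partner Tead1, and the target genes Ccn1 (also Cyr61), Ccn2 (also Ctgf), Ankrd1 and Amotl2. Single cells were sequenced from ovaries of prepubertal mice. Doxorubicin was given in 2 weekly doses from postnatal day 25, with collection 4 hours after the last of them, and the labels do not say how often vehicle and AMH were given. The control group received PBS or saline. The doxorubicin group was given 3 mg/kg of that drug. The AMH group was given 0.75 mg/kg of anti-Müllerian hormone (AMH) in its recombinant human form, and the combined group had both agents at these doses. In each group 1 ovary from each of 5 animals was pooled into 1 library, so the animals cannot be separated and no comparison between groups has a replicate. All values below are therefore given per library, in the order control, doxorubicin, doxorubicin with AMH, AMH alone, and every interval covers counting error only.

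LATS1 and LATS2 are the last kinases of the Hippo cascade. They phosphorylate YAP and TAZ, which then stay in the cytoplasm or are degraded. Unphosphorylated YAP and TAZ enter the nucleus, where they bind TEAD factors and switch on genes such as Ccn1, Ccn2, Ankrd1 and Amotl2. In the ovary the pathway is known for its part in follicle growth, since loss of Hippo restraint, for instance on cutting the tissue, is followed by YAP activity and CCN expression in follicles. YAP activity itself is set by phosphorylation and location, which RNA counts do not measure. AMH is made by granulosa cells of growing follicles and restrains the recruitment of resting follicles, and doxorubicin is an anthracycline that damages DNA.

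The core TEAD motif was searched upstream of the genes, and the sequences of 3 target genes are shown because the motif can be read in them directly. Of the 9 genes, 7 had an entry in the RefSeq promoter table (GRCm38.p6), with 9 start sites between them. Each window is the 250 bases before a RefSeq transcription start, 5′ to 3′ on the gene's own strand, and capitals mark GGAATG or its reverse complement CATTCC.
Ccn1, chr3:145649986-145650235, minus strand: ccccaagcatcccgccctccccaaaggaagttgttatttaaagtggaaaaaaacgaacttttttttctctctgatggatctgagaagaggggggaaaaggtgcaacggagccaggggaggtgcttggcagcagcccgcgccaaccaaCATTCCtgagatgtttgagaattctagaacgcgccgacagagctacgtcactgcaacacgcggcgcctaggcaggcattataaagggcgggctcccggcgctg
Ankrd1, chr19:36119845-36120094, minus strand: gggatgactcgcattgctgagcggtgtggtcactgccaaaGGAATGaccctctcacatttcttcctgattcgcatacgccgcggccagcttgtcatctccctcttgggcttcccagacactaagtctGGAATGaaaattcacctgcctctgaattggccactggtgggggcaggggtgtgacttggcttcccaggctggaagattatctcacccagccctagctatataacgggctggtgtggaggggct
Amotl2, chr9:102717554-102717803, plus strand: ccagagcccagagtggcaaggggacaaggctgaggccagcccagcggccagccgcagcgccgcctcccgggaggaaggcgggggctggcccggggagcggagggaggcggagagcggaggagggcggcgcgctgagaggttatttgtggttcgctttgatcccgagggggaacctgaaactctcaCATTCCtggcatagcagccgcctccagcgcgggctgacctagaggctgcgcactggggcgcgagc
The match began 103 bases upstream of the start in Ccn1 and 65 bases upstream in Amotl2, and Ankrd1 held 2 matches, 210 and 123 bases upstream. The Ankrd1 and Amotl2 windows, and both of Lats2, lie inside the annotated spans of their genes, whose outermost start is further upstream. One match was also present in the window of Yap1, 141 bases upstream, and in both overlapping windows of Wwtr1, and neither Lats1 nor Lats2 held one. Searched on both strands, the motif was present in 12.6% of all 32851 windows of the table, and 1.02% held 2 or more. No window of these genes held an AP-1 motif (TGANTCA, 6.75% of all windows) or a CArG box (1.47%). Ccn2 and Tead1 were not in the table.

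In the mm10 annotation used for positions (GENCODE vM21, GRCm38), the target genes Ccn1 (chr3:145646976-145649981, minus strand), Ccn2 (chr10:24595442-24598683, plus strand), Ankrd1 (chr19:36111961-36120099, minus strand) and Amotl2 (chr9:102716672-102733418, plus strand) are protein-coding. The same holds for Yap1 (chr9:7931999-8004596, minus strand), Wwtr1 (chr3:57455649-57575910, minus strand), Tead1 (chr7:112679318-112906807, plus strand), Lats1 (chr10:7681214-7716460, plus strand) and Lats2 (chr14:57689662-57758388, minus strand). None shared exons with another gene of the files on its own strand. On the opposite strand, exons of Ccn2 overlapped Gm15270 (1155 to 1864 UMIs per library, against 4673 to 7825 for Ccn2), and exons of Yap1 overlapped Gm20416 (722 to 971 UMIs, against 7024 to 10316 for Yap1).

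The 4 libraries held 7141 to 9478 cell barcodes and 138647495 to 178279122 UMIs, with a median of 9834.5 to 13575 UMIs per cell. Between 11 and 24 barcodes were shared by any pair of libraries. After filtering, 28631 cells remained and fell into 31 clusters. Of these, 29 were named from marker genes into 12 classes, written here as "-like", and no cluster met the marker rule for oocytes. Classes with at least 50 cells in every library numbered 6: granulosa-like (1885 to 2440 cells per library), theca-like (576 to 898), stroma-like (2239 to 3076), mural smooth muscle-like (638 to 1058), blood endothelial-like (66 to 173) and macrophage-like (95 to 195). UMIs of a class were summed per library and scaled to 1000000 UMIs of that class (CPM). The 9 genes and the pathway lists below were kept out of the genes used for clustering. Orders of classes below hold among these 6 classes only, and some smaller classes, given under other observations, had higher values.

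UMIs of both kinases were detected in all 6 classes. Lats1 had a narrow range, with class medians of the 4 libraries from 24.8 CPM in macrophage-like to 33.4 CPM in theca-like cells, and the ranges of every pair of neighbouring classes overlapped. Lats2 was highest in blood endothelial-like cells, at 95.4, 82.9, 104 and 95.2 CPM, a range that did not overlap that of the next class. Granulosa-like cells had the next median, with 79.3, 70.6, 54.0 and 60.3 CPM of Lats2, a range that overlapped the mural one. The other 4 classes had Lats2 medians of 48.2 to 55.1 CPM and could not be ordered, because neighbouring ranges overlapped.

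The coactivators differed in where they were high. Yap1 had medians of 50.3 to 68.0 CPM in the follicular, stromal and vascular classes and was low in macrophage-like cells at 6.80, 6.49, 1.89 and 14.8 CPM. Theca-like cells had the highest Yap1 median, at 60.5, 64.1, 71.9 and 74.8 CPM, a range that overlapped the blood endothelial one and lay above those of granulosa-like, stroma-like and mural cells. Wwtr1 was highest in blood endothelial-like cells, at 396, 385, 381 and 429 CPM, 1.89 times the next median and without overlap. Mural and granulosa-like cells came next for Wwtr1, with overlapping ranges and medians of 207 and 191 CPM, and theca-like cells were lower at 125, 117, 120 and 115 CPM. Tead1 was highest in mural cells, which gave 283, 290, 239 and 253 CPM and overlapped theca-like cells (177 to 244 CPM), and lowest in macrophage-like cells, with a median of 23.2 CPM. In granulosa-like cells Tead1 stood at 151, 152, 110 and 137 CPM.

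The targets did not follow 1 common order of classes. Ccn1, a secreted integrin-binding protein, was highest in mural cells at 294, 289, 264 and 239 CPM, 1.48 times the granulosa-like median and without overlap. Granulosa-like cells held 186, 186, 166 and 195 CPM of Ccn1, and stroma-like cells 163, 165, 175 and 168 CPM, which overlapped. Ccn2, its close relative with a role in matrix production, was instead highest in granulosa-like cells, at 85.9, 80.4, 57.8 and 69.6 CPM. That median was 2.52 times the one in blood endothelial-like cells, which held 44.1, 32.2, 17.7 and 27.4 CPM and did not overlap. Stroma-like cells had 14.9, 15.4, 9.77 and 14.7 CPM of Ccn2, and theca-like cells 6.28, 6.80, 3.12 and 4.43 CPM. Granulosa-like cells thus stood above the stroma-like class by a mean log2 ratio of 2.34 over the 4 libraries, and above the theca-like class by 3.62, the latter a bound from below because Ccn2 in theca-like cells lay at background by the share of cells with a UMI. Amotl2, an angiomotin-family protein that is both a target and an inhibitor of YAP, was highest in granulosa-like cells too, at 70.5, 64.4, 53.1 and 73.4 CPM. The next class for Amotl2 was theca-like, at 43.0, 35.7, 41.8 and 33.7 CPM, with no overlap.

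Ankrd1, an ankyrin-repeat cofactor widely used as a YAP reporter, was near the limit of detection. All deposited cells together gave 21, 11, 11 and 19 UMIs. Granulosa-like cells accounted for 4, 5, 3 and 1 of them, stroma-like cells for 1, 4, 4 and 7, and mural cells for 5, 0, 1 and 6. Ankrd1 passed the filter on low values in no class and entered no ratio. The other 8 genes passed in 5 classes, and 5 of 9 passed in macrophage-like cells.

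**Figure D1:**
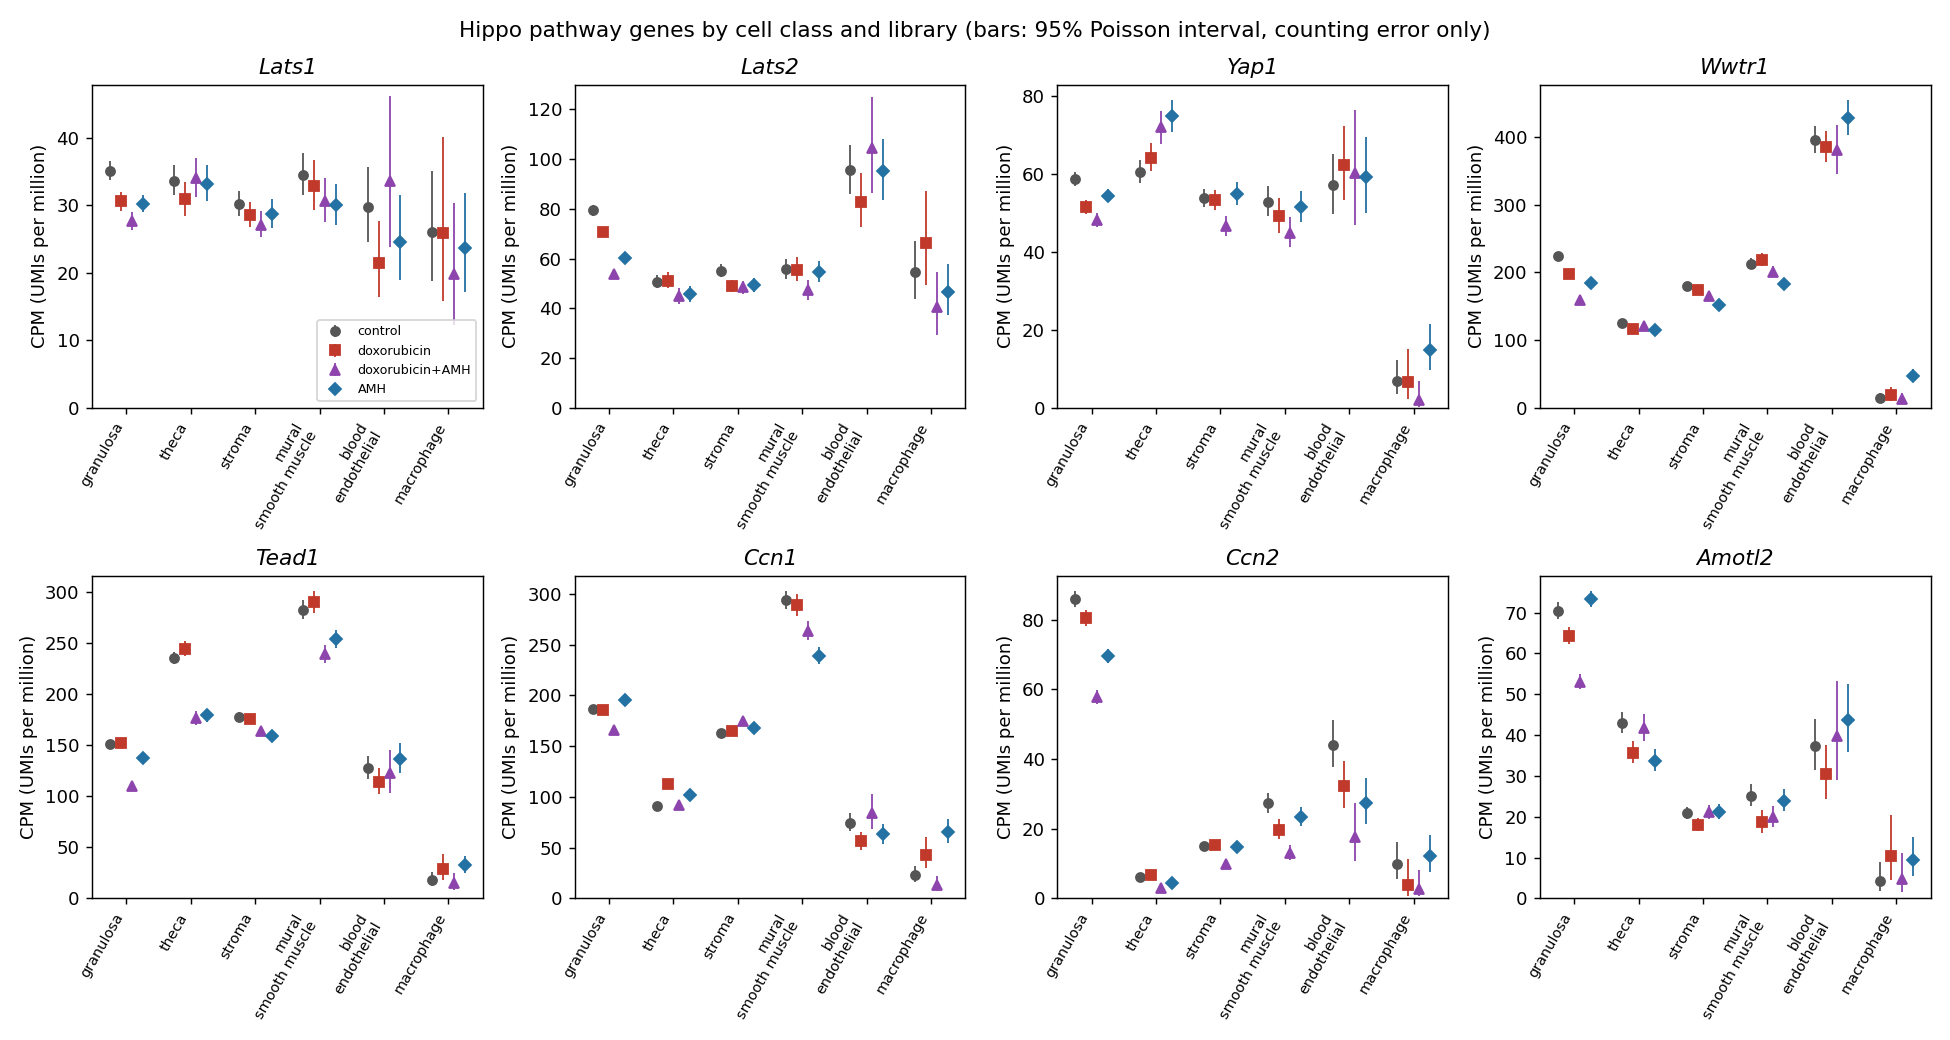
Level of 8 pathway genes in the 6 classes, in CPM (UMIs scaled to 1000000 of the class) on the vertical axis, with 1 point per library and bars for the 95% Poisson interval. Ccn2 and Amotl2 sit highest in granulosa-like cells, Ccn1 and Tead1 in mural cells, and Wwtr1 and Lats2 in blood endothelial-like cells.

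Set against all genes, such separations between classes were common. Between granulosa-like and stroma-like cells, 70.2% of 11232 genes had 4-library ranges that did not overlap, and so did 3 of the 8 pathway genes: Ccn2 and Amotl2 were higher in granulosa-like cells and Tead1 was lower. Between granulosa-like and theca-like cells the share was 61.4% of 10814 genes, and 7 of the 8 were separated. Here Wwtr1, Lats2, Ccn1, Ccn2 and Amotl2 were higher in granulosa-like cells, and Yap1 and Tead1 were higher in theca-like cells. The ranges hold treatment and handling differences together, since each library is 1 treatment.

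Shares of cells with a UMI were compared after each cell was thinned to 2000 UMIs. In granulosa-like cells 13.6, 11.2, 9.28 and 12.3% had a Ccn2 UMI, against 51.8, 42.5, 38.4 and 42.9% unthinned. Lymphocytes, which should lack Ccn2, served as background: 1.61, 4.17, 0 and 2.38% of thinned T or NK-like cells had one, and 0% of B-like cells. Median depths before thinning were 20233 to 24301.5 UMIs in granulosa-like cells and 5035 to 5812 in T or NK-like cells. With 24 to 62 thinned T or NK-like cells per library, the share of 0 in the combined group still allows up to 5.26%. The share in theca-like cells (1.32, 1.11, 0.56 and 0.68%) lay at that level and is read as background. For Ccn1 the shares in granulosa-like cells were 25.4, 25.9, 24.6 and 24.2%, all above the 1.61 to 9.52% in T or NK-like cells.

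Granulosa-like cells were not uniform. They formed 5 clusters with at least 50 cells in every library, called here by their leading genes, and Ccn2 differed widely between them. The Shroom3-led cluster, whose leading genes also include Ghr and the protease gene Prss23, had the highest Ccn2 in all 4 libraries at 172, 165, 141 and 131 CPM. Its 12 granulosa markers summed to 2708 to 3211 CPM, against 2991 to 4381 CPM in the Cdh12-led and 10080 to 11922 CPM in the Inhba-led cluster, and 58% of its marker list was up, so a stricter naming threshold of 60% leaves it unnamed. The Rgs13-led cluster followed with 95.9, 111, 77.8 and 88.6 CPM, and the proliferating Ube2c-led cluster with 63.1, 59.0, 39.4 and 41.2 CPM. The Inhba-led cluster, led also by Inhbb and the aromatase gene Cyp19a1, held 34.4, 40.5, 21.8 and 27.6 CPM of Ccn2. The Cdh12-led cluster, with Gatm and Kctd14, held 27.0, 23.3, 13.1 and 13.8 CPM. These clusters were drawn from the same cells, so their differences are a description.

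Ccn1 followed a similar order at the top, with 342, 321, 375 and 377 CPM in the Shroom3-led cluster and 84.8, 136, 98.0 and 90.2 CPM in the Inhba-led cluster. The Shroom3-led cluster exceeded the Inhba-led one by a mean log2 ratio of 1.80 for Ccn1 and 2.29 for Ccn2. When cells were limited to 10% mitochondrial UMIs and clustered again, the best-matching clusters differed by 0.73 and 1.39. Wwtr1 held 268, 245, 247 and 248 CPM in the Shroom3-led cluster, which was the highest of the 5 in both AMH libraries. In the control and doxorubicin libraries the Cdh12-led cluster was higher, at 326 and 257 CPM. Yap1 varied less, from 39.3 to 69.4 CPM over the 20 values of cluster and library. Beside these levels, 22 immediate early and stress genes summed to 8771 to 9743 CPM in the Shroom3-led and 5998 to 7442 CPM in the Inhba-led cluster. The 11 SRF-target and cytoskeletal genes summed to 4531 to 4767 and 2524 to 2693 CPM. Dissociation with papain and collagenase preceded capture, and the part of these genes in the order of Ccn1 and Ccn2 was not tested.

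**Figure D2:**
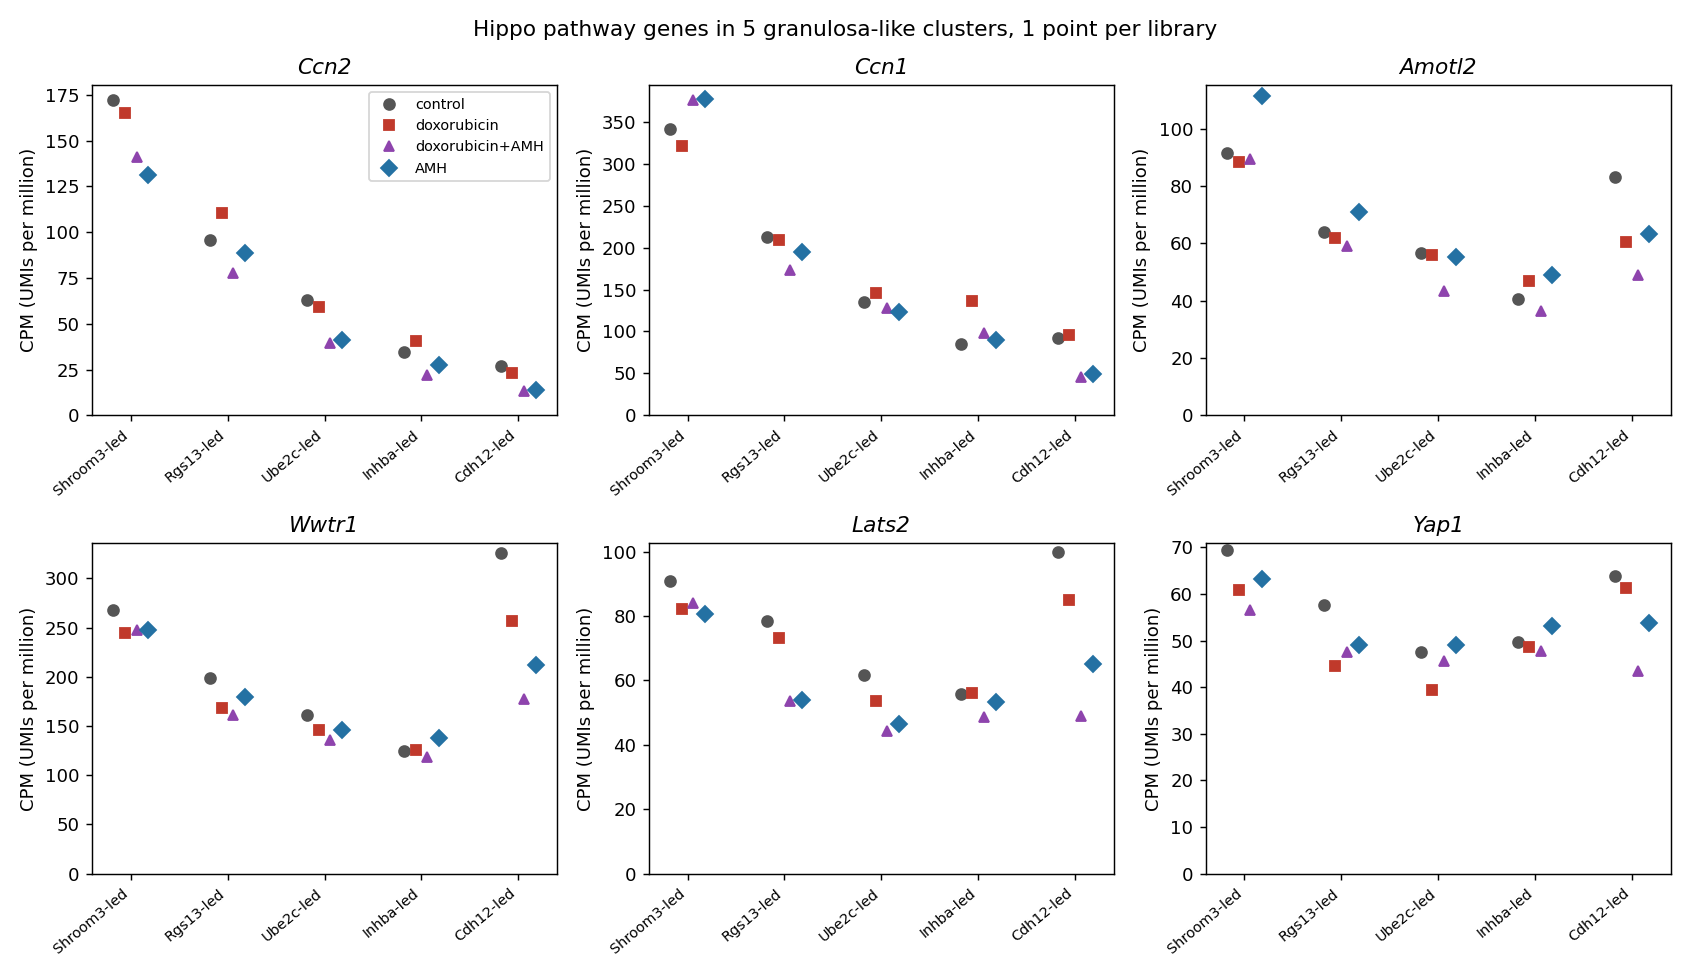
Level of 6 pathway genes in the 5 granulosa-like clusters, in CPM (UMIs scaled to 1000000 of the cluster) on the vertical axis, with 1 point per library. Ccn2 is highest in the Shroom3-led cluster in all 4 libraries, and Lats2 is lower in both AMH libraries than in the other 2 libraries in 4 of the 5 clusters, all but the Shroom3-led one.

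Doxorubicin was compared with control and, in the presence of AMH, doxorubicin with AMH was compared with AMH alone. These contrasts share no library. Ratios are log2 of CPM + 1. A gene was counted as past 1.5-fold only if its mean over the libraries reached 5 CPM and its sum 50 UMIs. None of the 8 pathway genes was past 1.5-fold in granulosa-like cells in either contrast, where 0.442% and 1.24% of 10627 genes were. Wwtr1 stood at 225, 197, 159 and 185 CPM in granulosa-like cells, so the doxorubicin library was lower by a log2 ratio of -0.19 and the combined library by -0.22. Amotl2 was lower by -0.13 and -0.46, Ccn2 by -0.09 and -0.26, and Lats2 by -0.17 and -0.16. Tead1 gave 0.01 and -0.32, and Ccn1 gave -0.01 and -0.24. Within the 5 clusters taken singly, Ccn2 with doxorubicin against control was lower in 3 and higher in 2. Its counting interval lay below 0 in 0 and above 0 in 2. Against AMH, the combined library had Ccn2 lower in 4 and higher in 1, and Amotl2 lower in all 5. Ccn1 there was lower in 3 and higher in 2. The Shroom3-led cluster held 29.4, 23.7, 17.2 and 26.5% of granulosa-like cells, and its part in the class ratios was not tested. The median over the 8 genes was -0.15 and -0.23, beside medians of -0.02 and 0.00 over all genes. Counting error was small at this depth, but it is not replicate error, which these libraries cannot give.

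Theca-like and stroma-like cells likewise had 0 of 8 genes past 1.5-fold in both doxorubicin contrasts, where 1.07% and 1.5% of genes were in theca-like and 1.72% and 1.91% in stroma-like cells. In mural cells 0 of 8 were past it with doxorubicin against control (3.16% of genes) and 1 of 8 with doxorubicin and AMH against AMH (2.99%). That gene was Ccn2, at 27.2, 19.7, 13.1 and 23.3 CPM, with a log2 ratio of -0.79 (95% counting interval of the CPM ratio -1.13 to -0.55). The makeup of the mural class differed alongside: its Des-led cluster held 203, 18, 55 and 182 cells and 52.4, 10.9, 6.5 and 37.1 CPM of Ccn2. Within the larger Acta2-led cluster Ccn2 was 14.6, 15.05, 11.9 and 17.05 CPM, and in the Rgs5-led cluster 64.4, 57.6, 32.6 and 53.0 CPM. Mural Ccn2 is not set against a background share of cells here, so its ratio is not read as a change in expression. Blood endothelial-like cells had 0 of 8 genes (7.26%) and 1 of 8 (16.6%), the latter again Ccn2, at -0.60 from 20 against 69 UMIs (-1.43 to 0.11). Leaving predicted doublets in turned that ratio to 0.03.

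The AMH contrasts set AMH against control and doxorubicin with AMH against doxorubicin, again with no library in common, though each library also enters a doxorubicin contrast above. In granulosa-like cells 0 of 8 genes were past 1.5-fold in either, where 3.96% and 5.3% of genes were. Ccn2 was lower by -0.30 and -0.47 and Lats2 by -0.39 and -0.38, while Ccn1 gave 0.07 and -0.16 and Amotl2 gave 0.06 and -0.27. Tead1, at -0.14 and -0.46, and Wwtr1, at -0.28 and -0.31, were lower as well. The median of the 8 was -0.17 and -0.29, beside -0.08 and -0.05 over all genes. The share of granulosa-like cells in the Ccn2-rich Shroom3-led cluster was 29.4, 23.7, 17.2 and 26.5%, so the class values carry this makeup too. Within the 5 clusters taken singly, Ccn2 was lower in all 5 in both contrasts, at -0.92 to -0.11 against control and -0.86 to -0.23 against doxorubicin. The counting interval lay below 0 in 4 of 5 and 5 of 5 clusters. The -0.92 came from the Cdh12-led cluster, whose Ccn2 ratio is not read as a change below. The -0.86 came from the Inhba-led cluster and was -0.35 with at most 10% mitochondrial UMIs. There 5.39, 4.90, 3.09 and 5.22% of thinned cells had a Ccn2 UMI, close to the T or NK-like shares given above.

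**Figure D3:**
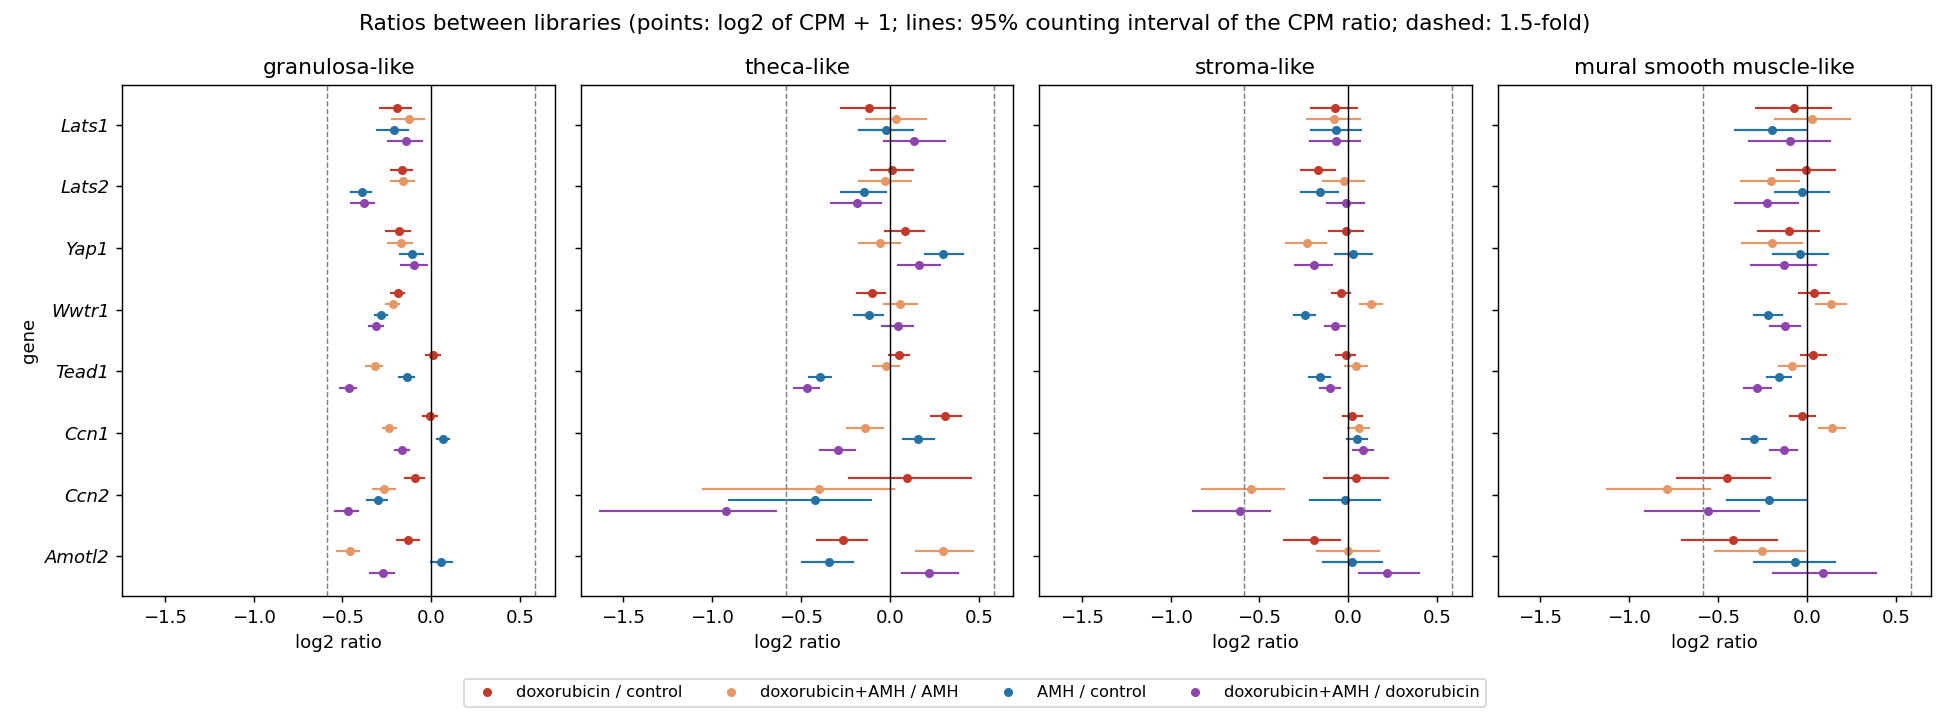
Log2 ratio (CPM + 1) of 8 pathway genes between libraries in 4 classes, on the horizontal axis, with lines for the 95% counting interval of the CPM ratio and dashed lines at 1.5-fold. All points of granulosa-like cells lie inside the dashed lines, and Ccn2 passes them in theca-like, stroma-like and mural cells in 1 contrast each. These Ccn2 calls are not read as changes in expression.

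In the Cdh12-led granulosa cluster several of the genes were lower with AMH. Its Ccn1 stood at 91.9, 95.2, 46.2 and 49.3 CPM, so both AMH libraries lay below both libraries without AMH. The log2 ratio was -0.88 (-1.08 to -0.72) for AMH against control and -1.03 for doxorubicin with AMH against doxorubicin. Ccn2 was likewise lower, at -0.92 (-1.32 to -0.63) and -0.78, from 367, 298, 63 and 88 UMIs. After thinning, 14.1, 17.4, 7.64 and 7.89% of its cells had a Ccn1 UMI and 4.90, 4.59, 0.64 and 3.51% a Ccn2 UMI. In T or NK-like cells, taken as background, the Ccn1 shares were 1.61 to 9.52% and the Ccn2 shares 1.61, 4.17, 0 and 2.38%. Both Ccn1 shares with AMH lay inside that range, and every Ccn2 share lay inside the counting interval of the background share in its own library. Those intervals rest on the few T or NK-like cells given above and are wide, so they cannot separate these Ccn2 shares from background. Unthinned, at unequal depth, 35.1, 29.6, 22.0 and 18.5% of the cells in this cluster had a Ccn2 UMI. The Ccn2 ratio is therefore not read as a change in expression. Lats2 held 99.8, 84.8, 48.9 and 65.1 CPM, with ratios of -0.61 (-0.78 to -0.46) and -0.78. Both AMH libraries were also the lower ones for Lats2 in the Rgs13-led, Ube2c-led and Inhba-led clusters. Wwtr1 held 326, 257, 177 and 212 CPM, with ratios of -0.62 (-0.71 to -0.53) and -0.53. Tead1, at 183, 177, 115 and 148 CPM, gave -0.30 and -0.62. Yap1 (-0.25 and -0.49) and Amotl2 (-0.39 and -0.30) were lower by less than 1.5-fold, and Lats1 gave 0.12 and -0.02.

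In this cluster 4 of 8 genes were past 1.5-fold in each AMH contrast, all lower, where 14.9% and 12.8% of 10654 genes were past it in either direction. Ccn2, whose ratio is not read as a change, was 1 of the 4 each time. Over all genes 1583 and 1362 were past it, of which 1026 and 895 were lower. For doxorubicin against control and for the combined treatment against AMH, 0 of 8 were past 1.5-fold, beside 2.2% and 5.95% of genes. The count for AMH against control was 2 with median-of-ratios scaling and 1 when each cell was weighted equally. Of the calls, Tead1 in the combined treatment against doxorubicin was kept under 6 of 11 alternatives and Lats2 with AMH against control under 7 of 11. The cluster itself was smaller with AMH, at 348, 307, 159 and 232 cells, and 6 of its 10 leading genes were lower in both AMH libraries than in both others. Among them Slc18a2 held 678, 582, 164 and 119 CPM and Kctd14 774, 804, 174 and 96.1 CPM. Of the other 4, Gatm held 261, 237, 310 and 472 CPM and Cdh12 itself 185, 124, 143 and 219 CPM. The receptor gene Amhr2 held 221, 252, 218 and 253 CPM there. The 12 granulosa markers summed to 4231, 4381, 3903 and 2991 CPM, the 9 theca markers to 765, 721, 358 and 343 CPM, and the 22 stress genes to 6989, 7501, 7084 and 6717 CPM. Which cells the cluster holds in each library, and its part in these ratios, was not tested.

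In the Shroom3-led cluster the direction of Ccn1 was the opposite, at 0.14 and 0.23, and Amotl2 was higher by 0.28 with AMH against control and by 0.02 with the combined treatment against doxorubicin. Ccn2 was lower there nonetheless. In the Inhba-led cluster Ccn1 gave 0.68 (0.55 to 0.82) with doxorubicin against control, which dropped to 0.23 when cells of at least 500 UMIs were kept, and 0.12 with doxorubicin and AMH against AMH. The stress genes of that cluster summed to 5998 CPM in the control and 7122 CPM in the doxorubicin library.

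**Figure D4:**
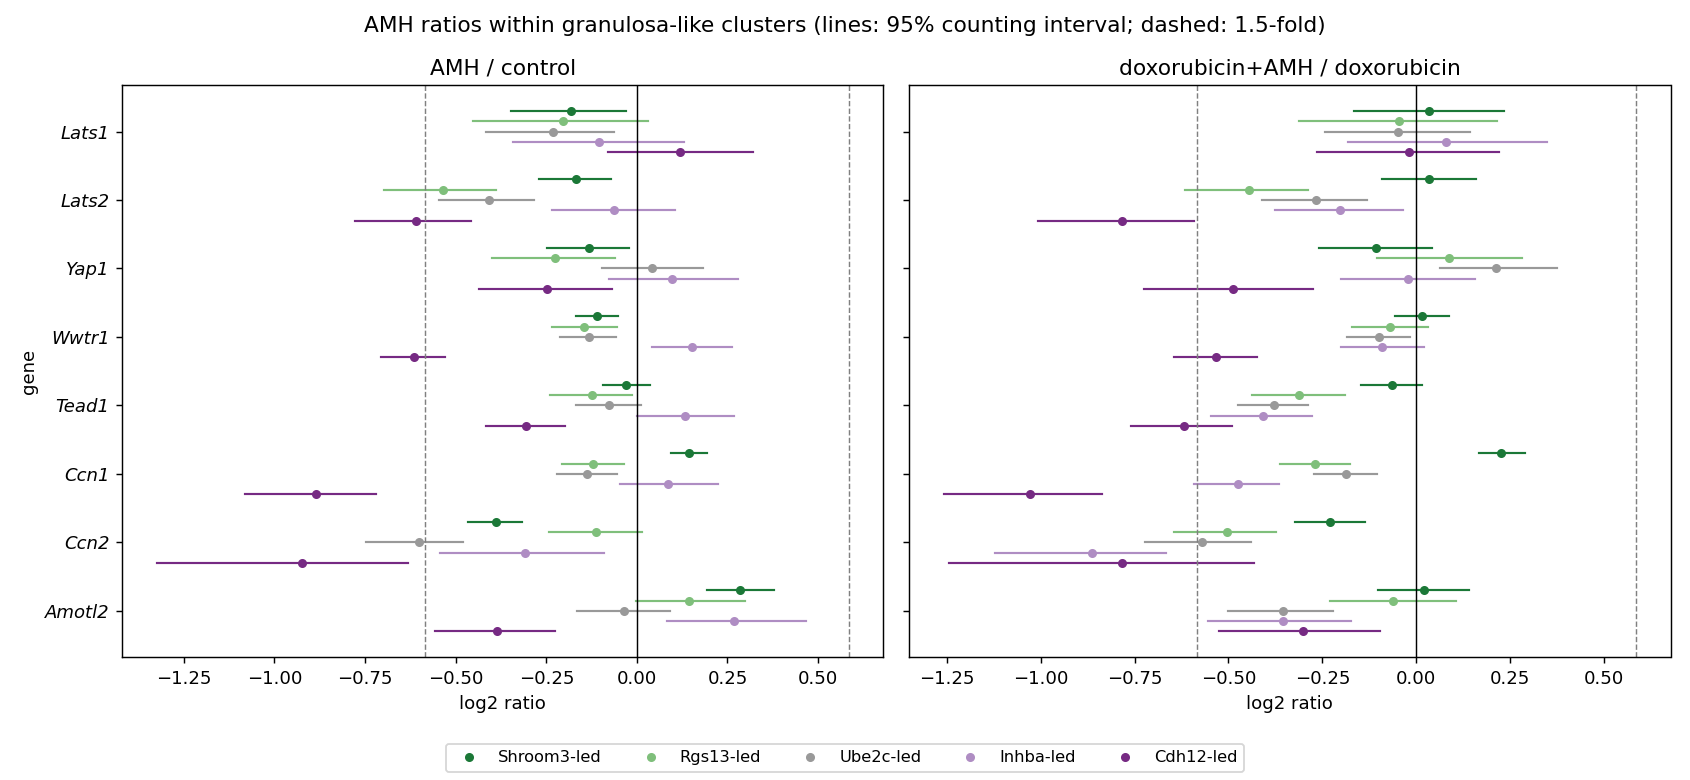
Log2 ratio (CPM + 1) of 8 pathway genes in the 5 granulosa-like clusters for the 2 AMH contrasts, on the horizontal axis, with lines for the 95% counting interval of the CPM ratio and dashed lines at 1.5-fold. Ccn2 lies below 0 in all 5 clusters in both panels, and Ccn1 is lowest in the Cdh12-led cluster and above 0 in the Shroom3-led cluster. The Cdh12-led Ccn2 ratios are not read as a change in expression.

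In theca-like cells 0 of 8 genes were past 1.5-fold with AMH against control (17.6% of genes) and 1 of 8 with the combined treatment against doxorubicin (17.4%). The 1 gene was Ccn2, at -0.92 (-1.63 to -0.64) from 49 against 130 UMIs, at a level read above as background. Its mean reached 5 CPM only through the libraries without AMH, so nothing is read from this count. Tead1 was lower in both, at 236, 244, 177 and 179 CPM, with ratios of -0.39 and -0.47, and Yap1 was higher, with 0.30 and 0.16. In the Sct-led cluster, the theca-like cluster with at least 50 cells in every library, Tead1 held 155, 146, 163 and 162 CPM and Yap1 62.4, 55.2, 62.4 and 64.0 CPM, so the lower Tead1 of the class was not seen there. Different clusters held most of the theca-like class with and without AMH, with 45, 68, 565 and 761 cells in the Prss35-led cluster and 658, 416, 36 and 25 in the Cyp17a1-led cluster. Its 9 theca markers summed to 17841, 17401, 7503 and 6604 CPM. In stroma-like cells 0 of 8 (2.14%) and 1 of 8 (2.76%) were past 1.5-fold, the latter Ccn2 at -0.61 (-0.88 to -0.44) from 271 against 494 UMIs, a call that was lost under 5 of the 11 alternatives that gave a value. Ccn2 was lower in all 5 stroma-like clusters in that contrast, by log2 ratios of -1.04 to -0.003, with the counting interval below 0 in 3 of 5. Stroma-like Ccn2 stood at 9.77 to 15.4 CPM, beside 13.1 to 27.0 CPM in the Cdh12-led cluster, which was not separated from background. It is not set against a background share here, so this call is not read as a change in expression. In mural cells 0 of 8 were past it in both (2.37% and 3.02%).

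Blood endothelial-like cells had 1 of 8 genes past 1.5-fold with AMH against control (14.7%) and 2 of 8 with the combined treatment against doxorubicin (15.6%). Ccn2 was lower in both, at -0.67 (-1.11 to -0.27) and -0.83 (-1.64 to -0.15), and Lats1 was higher in the second at 0.63 (0.02 to 1.26), from 38 UMIs in the combined and 60 in the doxorubicin library. With doublets left in the Ccn2 ratios were -0.48 and -0.25, and with cells weighted equally Lats1 gave 0.18. Mural markers summed to 716, 803, 1129 and 1365 CPM in this class, and stromal markers to 453, 496, 478 and 1245 CPM. In macrophage-like cells 2, 3, 3 and 3 of the 5 genes that passed the filter were past 1.5-fold in the doxorubicin, combined against AMH, AMH and combined against doxorubicin contrasts, beside 19.7%, 20.2%, 14.9% and 25% of genes. Ccn1 was among them each time, at 23.5, 42.8, 13.2 and 65.4 CPM. Granulosa markers in macrophage-like cells summed to 260, 314, 389 and 754 CPM and mural markers to 223, 475, 59.6 and 624 CPM. The part of RNA from those other cells in the macrophage and endothelial values was not tested.

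Other genes of the pathway were read from lists of 15 upstream kinases and adaptors, 17 junction and polarity regulators, 9 TEAD partners and cofactors and 17 further YAP or TEAD targets. In granulosa-like cells 14, 13, 5 and 12 of them passed the filter. The shares of all genes past 1.5-fold there, given above, were 0.442% and 1.24% in the doxorubicin contrasts and 3.96% and 5.3% in the AMH contrasts. In neither doxorubicin contrast was a kinase, regulator or partner past 1.5-fold there, and 1 target was lower with the combined treatment against AMH. The target medians in those contrasts were -0.05 and -0.36, beside -0.02 and 0.00 over all genes. With AMH against control 1 kinase was lower and 1 target higher and 1 lower, with a target median of -0.02, beside -0.08 over all genes. With the combined treatment against doxorubicin 1 kinase, 1 regulator and 4 targets were lower and 1 partner was higher, with a target median of -0.34, beside -0.05 over all genes. Past 1.5-fold lower in both AMH contrasts were Myof, a membrane-repair gene and YAP target, at 137, 98.7, 62.5 and 81.8 CPM (-0.73 and -0.65), and the kinase gene Tnik, at 27.2, 26.6, 11.5 and 17.4 CPM (-0.61 and -1.14).

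In theca-like cells the list counts stand beside 17.6% and 17.4% of all genes past 1.5-fold in the AMH contrasts. Of the 13 further targets that passed the filter, 6 were higher and 3 lower past 1.5-fold with AMH against control, and 5 were higher and 1 lower with the combined treatment against doxorubicin. The target medians were 0.50 and 0.57, beside -0.05 and -0.04 over all genes. The Prss35-led cluster held 45, 68, 565 and 761 cells of this class and the Cyp17a1-led cluster 658, 416, 36 and 25. Stroma markers summed to 1295, 1262, 1907 and 1821 CPM in the class. The part of this makeup in the list values was not tested. Rbms3 held 77.0, 58.9, 186 and 174 CPM (1.17 and 1.64) and Ccdc80 held 13.8, 12.3, 31.8 and 32.3 CPM (1.17 and 1.30). The SRF-target gene Myl9, a myosin light chain, held 71.2, 71.3, 192 and 218 CPM (1.60 and 1.42). The early response genes Ier3 (74.8, 77.9, 177 and 165 CPM) and Atf3 (132, 147, 296 and 331 CPM) were higher in the same libraries, and the 22 stress genes summed to 11194, 12177, 15323 and 15728 CPM. In the Sct-led cluster those stress genes summed to 10247, 9850, 9818 and 10426 CPM. They summed to 12492, 13187, 17489 and 17435 CPM in the Prss35-led cluster and to 11332, 12572, 11498 and 11183 CPM in the Cyp17a1-led cluster. Ccn1 in theca-like cells stood at 90.7, 113, 92.0 and 101 CPM and did not separate the AMH libraries from the others. With doxorubicin, in both contrasts, the list gene past 1.5-fold in mural cells was Fat4, an atypical cadherin upstream of the pathway, at 21.9, 9.15, 12.4 and 27.5 CPM (-1.18 and -1.09). The Des-led cluster of that class held 203, 18, 55 and 182 cells, and its part in this result was not tested. In stroma-like cells the SRF-target gene Cnn1 was past it in both AMH contrasts, at 6.24, 5.93, 11.8 and 14.4 CPM (1.09 and 0.89). The 10 mural markers, Cnn1 among them, summed to 731, 673, 1136 and 1006 CPM in stroma-like cells with none at 0, and their part in this result was not tested.

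Across the 24 points of 6 classes and 4 libraries, the genes most like each of the coactivators and CCN targets were listed from 11743 genes by Pearson correlation of log2(CPM + 1). The points share libraries and classes, so the values are descriptions. Yap1 was most like Cttn (0.97), which encodes the actin-binding protein cortactin, then Arhgap32 (0.96) and Nckap1 (0.96). Wwtr1 was most like Shroom2 (0.98), Zfp664 (0.98) and the tight-junction gene Tjp1 (0.97). Ccn1 was most like Sspn (0.96), Sec22a (0.95) and Rab11fip2 (0.94). Ccn2 was most like Prss23 (0.94), which also leads the Shroom3-led cluster, then Brd8 (0.93) and Arhgap29 (0.92). Over the same points Yap1 and Wwtr1 correlated at 0.89, Yap1 and Tead1 at 0.91, and Ccn1 and Ccn2 at 0.48.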

How the data were processed

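Ovarian cells of 4 groups, 1 library each, were profiled with 10x Genomics 3′ chemistry (v3.1). The deposited matrices hold raw UMI counts per gene and cell barcode from Cell Ranger 7.0.0, per the file headers. The submitters' processing notes name mm10, R 4.2.0 and Seurat 4.1.0. The annotation, the strand setting and the handling of intronic reads are not given in the sources used here. Cells under 1000 UMIs or over 20% mitochondrial UMIs were dropped, and doublets predicted by Scrublet were removed (0.8% per 1000 cells, 328 to 590 per library). Clustering used scanpy 1.11.5 (2000 variable genes without the 9 genes and pathway lists, 30 principal components, 20 neighbours, Leiden resolution 1.0 with leidenalg 0.10.2). A cluster was named when at least 50% of a marker list, and at least 3 markers, were 1 log2 unit above the median cluster and in 10% of its cells. That 50% was chosen after seeing the data, with 60% as an alternative.

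Counts were summed per class and library. With 1 library per group no test was possible and no p-value was computed. A gene counted as past the threshold at 1.5-fold of CPM + 1. Intervals at 95% are exact Poisson for CPM, exact conditional (Clopper-Pearson) for CPM ratios and Clopper-Pearson for shares (scipy 1.17.1). A count of 0 allows up to 3 counts. Other genes were named by rule: list genes past 1.5-fold the same way in both contrasts of a pair sharing no library, at most 5 per class, in granulosa-like, theca-like, stroma-like and mural cells, and the 3 genes most correlated with Yap1, Wwtr1, Ccn1 and Ccn2. The 9 genes and all lists were chosen with earlier results of these data known. Upstream sequences came from RefSeq (GRCm38.p6), and 32235 of 32285 gene IDs matched GENCODE vM21. The calculations were tested on simulated data.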

Additional observations from a re-analysis of the deposited data

Results flagged for a closer look

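Ccn1 moved in opposite directions between granulosa-like clusters in the 2 AMH contrasts (AMH against control, then doxorubicin with AMH against doxorubicin). In the Shroom3-led cluster it was higher, with log2 ratios of 0.14 and 0.23. It was lower in the Cdh12-led cluster, at -0.88 and -1.03, so the mean ratios differed by 1.14. The Rgs13-led cluster had -0.12 and -0.27, a difference of 0.38, and the Ube2c-led cluster had -0.14 and -0.19, a difference of 0.35. Each was picked out because every library comparison went one way in one cluster and the other way in the other. The differences were not tested, since each group is 1 library. No group had enough libraries to look for a library standing apart.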

How the results depend on the processing

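No paired analysis was possible because each group is 1 library, and for the same reason no replicate could be left out. Of 314 values, 236 to 314 stayed within their band under each of 9 alternatives run on all of them. The band was the counting interval for single ratios and 1.5 times for counts. For mean log2 ratios over the libraries it was the value plus or minus their standard deviation, and the libraries differ in treatment. The smaller sets were 302 values for a mean of at least 20 CPM (300 unchanged in this sense), 310 for at most 10% mitochondrial UMIs (288) and 210 for the per-cell marker gate (199). Weighting each cell equally moved 77 and leaving doublets in moved 39. All 48 shares of cells were higher without thinning. The count in granulosa-like cells stayed at 0 of 8 under every alternative run. Of the Cdh12-led results, Ccn1 and Lats2 in the combined treatment against doxorubicin stayed past 1.5-fold under 11 of 11 alternatives, Wwtr1 with AMH against control under 9 of 11, Lats2 in that contrast under 7 of 11, and Tead1 in the combined treatment against doxorubicin under 6 of 11. Ccn1 in the Inhba-led cluster with doxorubicin stayed past it under 7 of 11. The cause of the shifts below was not tested.

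Ccn2 in blood endothelial-like cells, combined against AMH, went from -0.60 to 0.025 with doublets left in. Wwtr1 in macrophage-like cells in that contrast went from -1.84 to 0.61 with cells weighted equally.

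Mean log2 ratios over the libraries shifted as follows, with clusters matched by their shared cells after reclustering. The Shroom3-led over Inhba-led ratio of Ccn1 (1.80) was 0.73 at 10% mitochondrial UMIs, 0.80 with doublets left in and 1.06 at resolution 2.0. For Ccn2 (2.29) it was 1.76 with cells of at least 500 UMIs, 1.39 at 10% mitochondrial UMIs and 1.40 with doublets left in. Ccn2 in granulosa-like over stroma-like cells (2.34) was 2.14 with doublets left in and 1.75 with names at 60% of markers, an alternative added after seeing the data. Ccn2 over theca-like cells (3.62, against a background level) was 3.43 with doublets left in, 2.97 by the marker gate and 3.04 at 60%. Ccn1 in mural over theca-like cells (1.44) was 1.12 with doublets left in. Tead1 in mural over granulosa-like cells (0.96) was 0.76 with doublets left in and 1.18 at 60%.

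Counts past 1.5-fold shifted in these cases. The Cdh12-led count for AMH against control (4, Ccn2 among them) was 2 with median-of-ratios scaling and 1 with cells weighted equally. In theca-like cells the combined against doxorubicin count (1) was 0 with a pseudocount of 5, a mean of at least 20 CPM or 10% mitochondrial UMIs. In stroma-like cells the same count (1) was 0 with median-of-ratios scaling, a pseudocount of 5, a mean of at least 20 CPM, doublets left in, equal weights or the marker gate, and the combined against AMH count (0) was 1 with at least 500 UMIs or 10% mitochondrial UMIs. In mural cells the combined against doxorubicin count (0) was 1 with equal weights or the marker gate. In blood endothelial-like cells the AMH count (1) was 0 with doublets left in or the marker gate, and the doxorubicin count (0) was 1 with equal weights. There the combined against AMH count (1) was 0 with a pseudocount of 5, at least 500 UMIs, doublets left in or resolution 2.0, and 2 without a filter on low counts. The combined against doxorubicin count (2) was 1 with a pseudocount of 5 and 0 with doublets left in or equal weights. In macrophage-like cells the doxorubicin count (2) was 1 with a pseudocount of 5, at least 500 UMIs, 10% mitochondrial UMIs, doublets left in or the marker gate, and 4 without the filter or with equal weights. The AMH count (3) there was 5 without the filter. The combined against AMH count (3) was 6 without the filter, with doublets left in or with equal weights, and 5 with at least 500 UMIs. The combined against doxorubicin count (3) was 5 without the filter or with equal weights.

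Depth limits the small classes most: Ccn2 rested on 20 to 169 UMIs per library in blood endothelial-like cells, and Ankrd1 could not be compared anywhere.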

Other observations

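Classes below 50 cells in at least 1 library gave values too thin for a ratio. Surface epithelial-like cells held 112, 102, 64.6 and 103 CPM of Amotl2 and 258, 208, 89.0 and 113 CPM of Ccn1, the combined library from 62 UMIs of Ccn1. Lymphatic endothelial-like cells held 140, 125, 113 and 132 CPM of Lats2 and 40.7, 66.8, 48.6 and 41.3 CPM of Ccn2. Lats2 was also present in T or NK-like cells, at 101, 62.7, 91.7 and 102 CPM. Oviduct-type epithelial-like cells, with 1 cell in the doxorubicin library, held 238, 523 and 337 CPM of Ccn1 in the control, combined and AMH libraries.

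A pair of granulosa-like clusters came almost only from the doxorubicin library. The B230209E15Rik-led cluster (175 of 178 cells) held 244 CPM of Ccn1, 374 CPM of Wwtr1 and 32.8 CPM of Ccn2. The Amh-led cluster (78 of 83 cells) held 41.8 CPM of Ccn1, 104 CPM of Wwtr1 and 0 UMIs of Ccn2. With 1 library, a cluster of this kind cannot be told apart from a property of that library.

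Among the other CCN genes, Ccn4 had a median of 19.1 CPM in stroma-like and 9.94 CPM in mural cells, and Ccn3, Ccn5 and Ccn6 had medians of at most 2.69 CPM in any of the 6 classes. Tead4, another TEAD factor, had a median of 23.7 CPM in blood endothelial-like cells, and the TEAD cofactor Vgll3 had 48.1 CPM in theca-like and 44.2 CPM in mural cells.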
